A study of Mus musculus with 57 samples.

Results

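The genes described here are the 7 mouse Clca genes (Clca1, Clca2, Clca3a1, Clca3a2, Clca3b, Clca4a and Clca4b), the bestrophin channel gene Best2 and the anoctamin channel gene Ano1. They were chosen by name, and each was read from the brightest of its probe sets that carry a single gene symbol. All 9 were measured, out of 22180 genes in the series. No filter on low values was applied, so none was lost. Ano1 is a chloride channel opened by intracellular calcium, found in secretory epithelia and in the interstitial cells of Cajal that pace gut muscle. Best2 is a calcium-activated anion channel of colonic goblet cells, where it serves bicarbonate secretion. Despite their name, Clca proteins are not channels themselves: they are secreted or membrane-bound proteins with a metalloprotease-like domain, and Clca1 is a major protein of the goblet cell mucus layer that also raises the amount of Ano1 at the cell surface.

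Arrays of distal colon RNA from C57BL/6 mice, 57 in number, compared mice with and without the insulin receptor in the intestinal epithelium. INSRfl/fl littermates carry a receptor gene that Cre can delete (called fl/fl here). In villin-CRE-INSR-/- mice (called knockout here) the villin promoter drives Cre in the intestinal epithelium, so that other cells of the tissue keep the gene. The mice were adults of 18 to 24 weeks, and the treatment protocol names females. The untreated groups held 10 fl/fl and 10 knockout samples. The AOM+DSS groups held 10 fl/fl and 10 knockout colon samples from mice injected with the carcinogen AOM at 7.4 mg/kg and given DSS, which injures the colon epithelium, at 3% for 7 days in week 2. The tumor groups held 8 fl/fl and 9 knockout tumors from mice treated the same way. The mice were killed in week 5, given in the protocol as 3 weeks past DSS. The labels call the samples biological replicates and leave unsaid if any mouse gave both a tumor and a colon sample, so p-values treat all samples as independent.

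Values are deposited log2 expression values, on which a step of 1 is a doubling. Levels of different genes come from different probes and were not compared with each other. Changes are log2 differences ± SE from a limma model of all 6 groups, with p-values adjusted over all 22180 genes and a threshold of 0.05. In whole tissue, fewer cells of a type and less RNA per cell cannot be told apart.

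Insr, the targeted gene, differed between knockout and fl/fl samples by -0.94 ± 0.10 in untreated colon, -0.84 ± 0.10 after AOM+DSS and -0.65 ± 0.11 in tumors (adjusted p = 6.71e-09, 2.32e-07 and 0.00234). The groups did not overlap in either kind of colon, but the highest knockout tumor reached 8.35, inside the range of fl/fl tumors (7.70 to 8.50). Within groups, each array correlated with its fellows at 0.981 to 0.992 on average. The lowest belonged to replicate 2 of the untreated knockout group, whose mean over 6 Hox genes of distal colon position was 6.93 against 8.69 to 8.92 in the other 9 samples. The same mean ran from 6.67 to 8.89 in fl/fl tumors and from 6.58 to 9.02 in knockout tumors. Results that rest on that array are given without it where it changed a call.

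The 7 Clca genes lie side by side on chromosome 3 in the gene order of assembly GRCm38.p6. From one end the order is Sh3glb1, Clca3a1, Clca3a2, Clca3b, the pseudogene Clca4c-ps, Clca4b, Clca4a, Clca1, Clca2 and Odf2l. Best2 lies on chromosome 8 and Ano1 on chromosome 7. Some neighbouring Clca genes are close copies of each other. Probes for Clca3a1, Clca3a2 and Clca3b, or for Clca4a, Clca4b and Clca4c-ps, may therefore bind each other's transcripts, and the split of signal between them is uncertain.

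RefSeq promoter windows on GRCm38.p6 were matched by symbol, and the 250 bases before the start are shown for Clca4b, which had the largest rise of all genes after AOM+DSS in fl/fl mice, and for Clca3b, which rose after AOM+DSS in both genotypes and lies near it in the cluster. Both lie on the minus strand, at chr3:144849303-144849552 for Clca3b and chr3:144932530-144932779 for Clca4b. They are written 5′ to 3′ toward the start, and capitals mark every match on either strand to 5 motifs: NF-kB as GGG and CC with any 5 bases between, STAT as TTCNNNGAA, STAT6 as TTC and GAA with any 4 bases between, AP-1 as TGANTCA and the TATA box as TATAAA.
Clca3b: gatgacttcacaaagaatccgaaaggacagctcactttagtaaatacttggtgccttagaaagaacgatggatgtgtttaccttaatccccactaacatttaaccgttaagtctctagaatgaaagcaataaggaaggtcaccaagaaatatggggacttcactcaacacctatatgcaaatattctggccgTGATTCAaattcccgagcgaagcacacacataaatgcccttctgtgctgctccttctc
Clca4b: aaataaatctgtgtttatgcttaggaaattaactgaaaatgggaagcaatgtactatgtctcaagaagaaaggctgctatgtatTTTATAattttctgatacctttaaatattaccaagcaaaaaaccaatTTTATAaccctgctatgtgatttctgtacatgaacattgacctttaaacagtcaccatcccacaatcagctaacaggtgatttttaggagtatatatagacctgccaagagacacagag

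The Clca3b window held 1 AP-1 match, 58 to 52 bases before the start. Of 32851 RefSeq windows of the same length, 6.75% held the AP-1 letters. The Clca4b window held 2 matches to TATAAA, both read on the opposite strand and more than 100 bases from the start. These letters occurred in 12.4% of all windows. Only TATAAA was searched, so TATA-like runs with other letters were not marked. One such run, tatatatag, lies 29 to 21 bases before the Clca4b start. The NF-kB letters occurred in 45.8%, the STAT letters in 7.02% and the STAT6 letters in 5.85% of all windows and were not in either window shown. A match is a description of letters and does not show that a factor binds.

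The first question was how the genes stood in the colon after AOM+DSS, in tissue that was not tumor. In fl/fl mice 5 of the 9 genes rose and 0 fell (Clca4b, Clca4a, Clca2, Clca3a1 and Clca3b), where 22.7% of all genes were called, 12.2% higher and 10.5% lower. In knockout mice 6 rose, the same 5 and Clca3a2, and Clca1 fell, where 30.2% of all genes were called, 16% higher and 14.2% lower. The median change of the 9 genes was 0.40 in fl/fl and 0.52 in knockout mice, beside -0.039 and -0.040 over all genes. Best2 and Ano1 were not called in either genotype. The groups of 0 of the 9 genes in fl/fl mice and of 1 (Clca4b) in knockout mice did not overlap, against 1.06% of all genes in fl/fl mice (0.821% higher, 0.234% lower) and 4.74% in knockout mice (3.68% higher, 1.06% lower).

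Clca4b, a paralogue of Clca4a beside it in the cluster, was low and variable in untreated colon and high after AOM+DSS. In fl/fl mice its lowest, median and highest values were 5.94, 6.71 and 9.62 in untreated colon and 9.46, 12.04 and 12.67 after AOM+DSS. In knockout mice they were 6.20, 8.17 and 10.52 untreated and 11.51, 12.89 and 13.14 after AOM+DSS. Only the lowest treated fl/fl sample fell below the highest untreated one, and the knockout groups were fully apart. Clca4b rose by 4.64 ± 0.41 in fl/fl mice, or 24.9-fold, which was the largest change in size among all 22180 genes (adjusted p = 1.20e-11). The rise in knockout mice was 4.06 ± 0.41, or 16.6-fold, and ranked 2 by size (adjusted p = 2.85e-11). The spread between untreated samples (SD 1.15 in fl/fl and 1.497 in knockout, n = 10 each) was wider than for any of the other 8 genes in these groups.

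Clca4a, a membrane protein of non-goblet colonocytes, rose far less. In fl/fl samples it had a lowest, median and highest value of 9.49, 10.35 and 10.87 untreated and 10.67, 11.42 and 12.13 after AOM+DSS. The knockout samples stood at 10.61, 10.98 and 11.43 untreated and at 11.35, 11.86 and 12.34 after AOM+DSS. Treated samples were higher, with a narrow overlap in each genotype. The changes were 1.17 ± 0.23 in fl/fl and 0.84 ± 0.23 in knockout mice (adjusted p = 0.000106 and 0.00283). A second, dim probe set of Clca4a had means of 5.36 untreated and 5.73 after AOM+DSS in fl/fl mice, and 5.47 and 5.80 in knockout mice. The pseudogene Clca4c-ps rose by 0.60 ± 0.14 and 0.65 ± 0.14 (adjusted p = 0.00110 and 0.000184).

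Members of the Clca3 group rose by smaller amounts. Clca3a1, described in lymphatic endothelium, had a median of 5.51 in untreated fl/fl colon (range 5.26 to 5.94) and 5.97 after AOM+DSS (5.47 to 6.74). In knockout colon the medians were 5.63 (5.28 to 5.91) and 6.26 (5.57 to 6.81). The ranges overlapped in both genotypes, and the changes were 0.54 ± 0.13 and 0.66 ± 0.13 (adjusted p = 0.00202 and 8.10e-05). Clca3b moved within a narrow band, with fl/fl medians of 12.38 untreated (12.17 to 12.58) and 12.80 after AOM+DSS (12.32 to 13.10). Its knockout medians were 12.57 (12.34 to 12.84) and 13.05 (12.76 to 13.19). It rose by 0.40 ± 0.09 and 0.44 ± 0.09 (adjusted p = 0.000611 and 6.91e-05), again with overlapping ranges.

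Clca3a2, the close relative of Clca3a1, was called in knockout mice alone. Its fl/fl medians were 8.58 untreated (7.97 to 8.87) and 8.84 after AOM+DSS (7.87 to 9.43), a difference of 0.16 ± 0.19 (adjusted p = 0.578). The knockout medians were 8.82 (8.21 to 9.53) and 9.46 (8.75 to 10.09), a rise of 0.52 ± 0.19 (adjusted p = 0.0351). The difference between the genotypes in this response was 0.36 ± 0.27 (adjusted p = 0.876), so the 2 responses were not shown to differ. Of 9 lymphatic and blood endothelium genes, 5 in fl/fl and 6 in knockout mice also rose and 0 fell, with medians of 0.27 and 0.36; their part in the Clca3a1 and Clca3a2 values was not tested.

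Clca2, a gene of stratified epithelium, gave dim values that rose after AOM+DSS together with squamous genes. Its medians were 4.94 untreated (4.68 to 5.36) and 5.59 after AOM+DSS (4.95 to 6.52) in fl/fl mice. In knockout mice they were 4.77 (4.06 to 5.44) and 5.63 (4.82 to 6.51). Some treated samples stayed at the untreated level in both genotypes. The changes were 0.68 ± 0.21 and 0.86 ± 0.21 (adjusted p = 0.0168 and 0.00123). The mean over 14 squamous epithelium genes ranged from 5.14 to 8.46 in untreated and 5.16 to 9.19 in AOM+DSS fl/fl samples, and from 5.10 to 7.76 and 5.17 to 9.30 in knockout samples. Of these genes 8 rose and 0 fell in each genotype, Krt14 by 2.97 ± 0.53 in fl/fl and 3.08 ± 0.53 in knockout mice. With that mean as a covariate the change of Clca2 was 0.14 in fl/fl and 0.37 in knockout mice (adjusted p = 0.569 and 0.0709). The same covariate left the knockout changes of Clca3a2 at 0.51 and of Clca1 at -0.23 past no threshold (adjusted p = 0.0686 and 0.224). In AOM+DSS knockout colon the sample with the highest squamous mean also held the highest Clca2. In AOM+DSS fl/fl colon and in both untreated groups the highest Clca2 came from another sample. The part of squamous cells in the Clca2 values was not tested.

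Clca1, the goblet cell mucus protease, stayed close to its untreated level. The fl/fl medians were 13.21 (13.05 to 13.39) and 13.11 (12.66 to 13.33), a difference of -0.19 ± 0.13 (adjusted p = 0.290). The knockout medians were 13.12 (12.83 to 13.56) and 12.85 (12.45 to 13.13), and the gene fell by 0.35 ± 0.13 (adjusted p = 0.0330). Without replicate 2 of the untreated knockout group the difference was -0.30 (adjusted p = 0.0758), so the call rests on that array. The difference between genotypes in this response was -0.16 ± 0.18 (adjusted p = 0.920).

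Best2 and Ano1, the channels, did not pass the test after AOM+DSS. Best2 had fl/fl medians of 10.00 untreated (9.77 to 10.20) and 10.19 after AOM+DSS (9.58 to 10.38), and knockout medians of 9.64 (8.32 to 10.13) and 9.48 (9.04 to 10.03). The differences were 0.13 ± 0.20 and -0.050 ± 0.20 (adjusted p = 0.661 and 0.879), with 95% intervals of -0.27 to 0.54 and -0.45 to 0.35. Ano1 had medians of 11.29 (11.19 to 11.43) and 11.25 (10.97 to 11.59) in fl/fl mice and of 11.24 (10.76 to 11.49) and 11.17 (10.55 to 11.47) in knockout mice. Its differences were -0.0045 ± 0.088 and -0.098 ± 0.088 (adjusted p = 0.978 and 0.438), with intervals of -0.18 to 0.17 and -0.27 to 0.078.

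**Figure D1:**
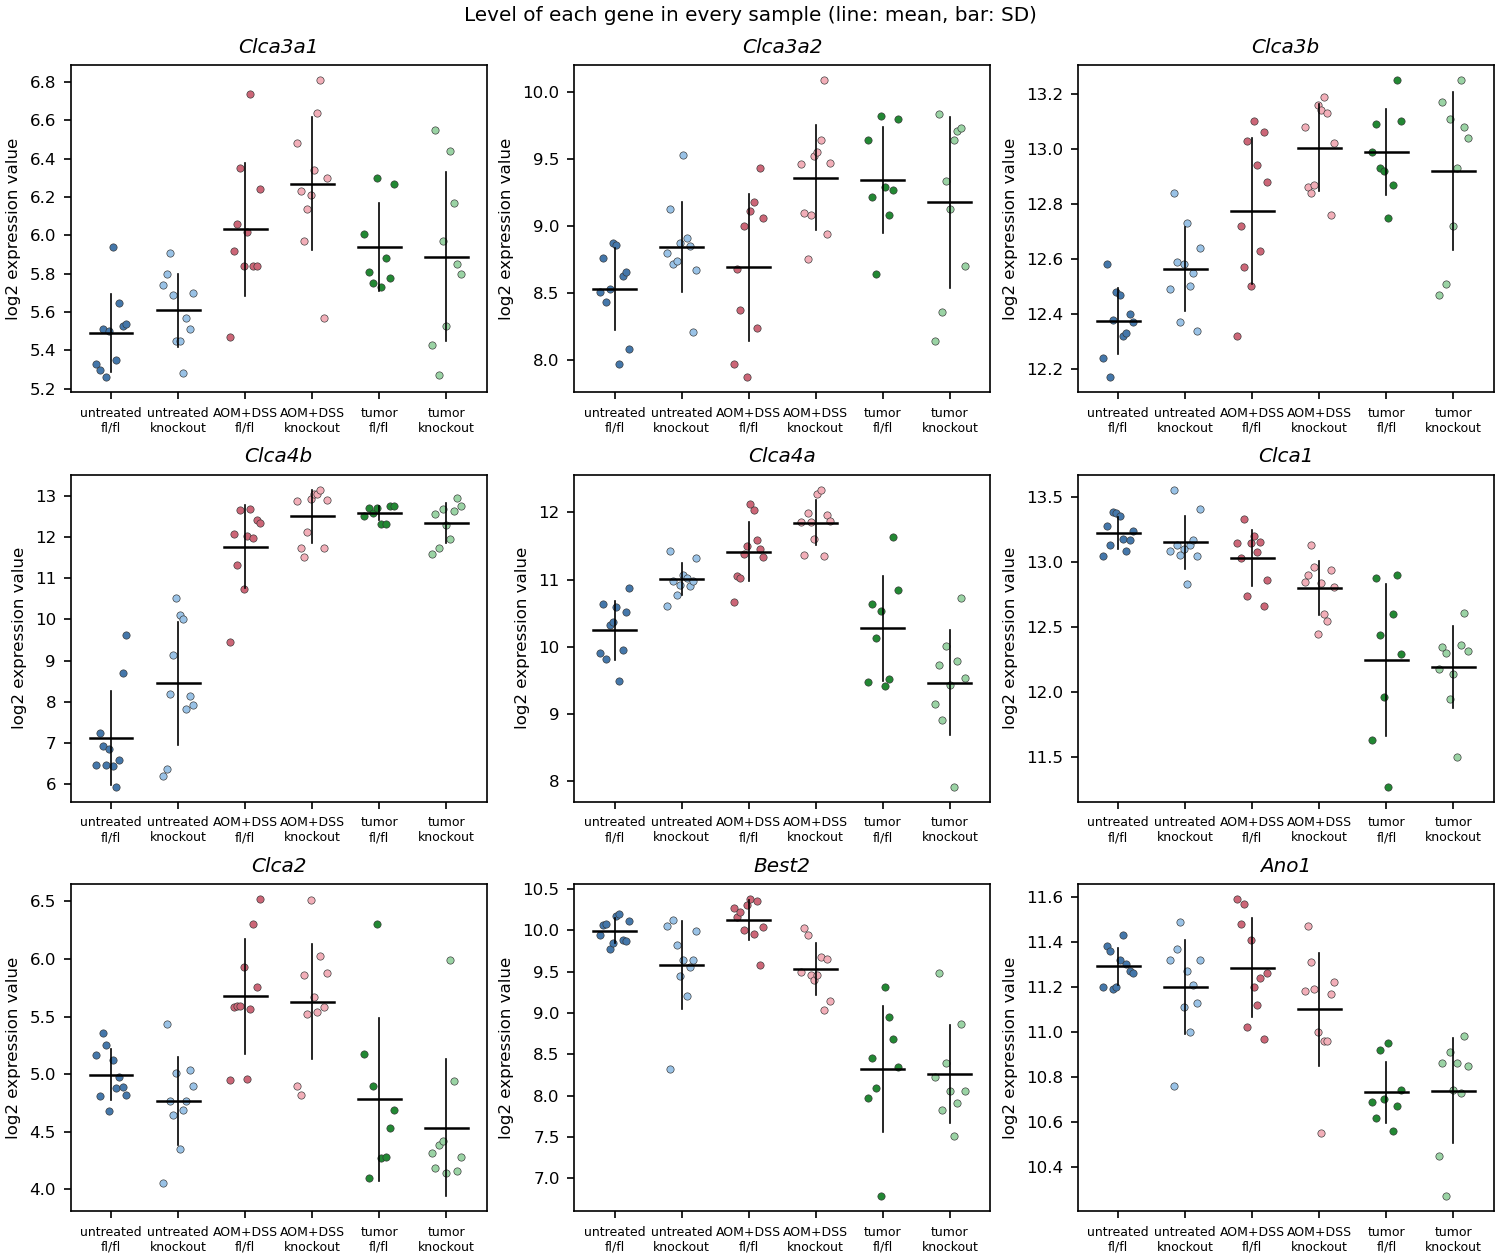
Each panel plots the log2 expression value of 1 gene in every sample of the 6 groups, with a line at the mean and a bar of 1 SD on either side; the scale differs between panels. Clca4b separates untreated colon (means 7.12 and 8.45) from AOM+DSS colon and tumors (means 11.76 to 12.58), Clca1, Best2 and Ano1 are lower in tumors, and Clca4a is highest after AOM+DSS.

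The next question was how tumors stood against the AOM+DSS colon. These comparisons share the AOM+DSS samples with those above. In fl/fl mice 1 of the 9 genes was higher in tumors (Clca3a2) and 5 were lower (Clca1, Clca2, Clca4a, Best2 and Ano1), where 41.2% of all genes were called, 21% higher and 20.2% lower. In knockout mice 0 were higher and 6 were lower, the same 5 and Clca3a1, where 42.9% of all genes were called, 21.5% higher and 21.4% lower. The median change of the 9 genes was -0.55 in fl/fl and -0.38 in knockout mice, beside 0.018 and 0.0020 over all genes. The groups of 2 genes in fl/fl mice (Best2 and Ano1) and of 1 in knockout mice (Clca4a) did not overlap, against 12% of all genes in fl/fl mice (5.61% higher, 6.38% lower) and 14.7% in knockout mice (7.46% higher, 7.24% lower).

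The fall was steepest for Best2 in fl/fl mice and for Clca4a in knockout mice. Best2 had a lowest, median and highest value of 6.78, 8.404 and 9.32 in fl/fl tumors and 7.51, 8.06 and 9.48 in knockout tumors. Every fl/fl tumor was below every fl/fl AOM+DSS sample, while the highest knockout tumor reached into the AOM+DSS range. Best2 fell by 1.80 ± 0.21 in fl/fl and 1.27 ± 0.21 in knockout mice (adjusted p = 2.01e-10 and 5.67e-07), to a level 3.49-fold and 2.41-fold lower. Of the 6 Hox genes of colon position, 5 fell in fl/fl and 2 in knockout tumors. With the mean of these Hox genes as a covariate the changes of Best2 were -1.74 and -1.23 (adjusted p = 7.98e-09 and 2.30e-06). This covariate was chosen after seeing the data, and the part of colon position in the fall of Best2 was not tested. The lowest value of Best2, 6.78, belonged to the fl/fl tumor with the highest squamous mean, 8.67, and without that tumor Best2 fell by 1.58 (adjusted p = 7.01e-10).

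Clca4a had values of 9.42, 10.33 and 11.63 in fl/fl tumors and of 7.91, 9.53 and 10.72 in knockout tumors. It fell by 1.15 ± 0.24 in fl/fl mice (adjusted p = 7.17e-05), with overlapping groups. In knockout mice it fell by 2.39 ± 0.23, or 5.22-fold (adjusted p = 5.71e-13), with no overlap. The difference between the genotypes in this response was -1.24 ± 0.34 with a 95% interval of -1.91 to -0.57, ranked 7 by size among all genes, and did not pass the test (adjusted p = 0.394). Of 12 absorptive colonocyte genes 0 were higher and 11 lower in tumors of each genotype, with medians of -2.87 and -2.20; they include Krt20, the gene whose values ran closest to those of Clca4a. Their part in the Clca4a values was not tested. The falls given here are those of the brightest Clca4a probe set. The second, dim probe set had means of 5.48 in fl/fl and 5.27 in knockout tumors, beside 5.73 and 5.80 in AOM+DSS colon.

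Clca4b was high in both tumors and AOM+DSS colon, and the comparison of the 2 did not pass the test in either genotype. Its values were 12.32, 12.65 and 12.75 in fl/fl tumors and 11.58, 12.56 and 12.94 in knockout tumors, all within or near the range of the AOM+DSS samples. The differences were 0.82 ± 0.44 and -0.16 ± 0.42 (adjusted p = 0.133 and 0.812), with intervals of -0.053 to 1.69 and -1.004 to 0.69. In a fit of the compared groups alone the fl/fl difference passed (0.82, adjusted p = 0.0496). Fl/fl tumors were the most uniform group, with an SD of 0.18 (n = 8) against 1.005 in the fl/fl AOM+DSS colon (n = 10).

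The Clca3 group gave small and unequal differences in tumors. Clca3a2 had a median of 9.28 in fl/fl tumors (8.64 to 9.82), a rise of 0.66 ± 0.21 (adjusted p = 0.00727) with overlap. Knockout tumors had a median of 9.34 (8.14 to 9.84), a difference of -0.18 ± 0.20 (adjusted p = 0.510). The difference between genotypes was -0.84 ± 0.29 and did not pass the test (adjusted p = 0.530). Clca3a1 had medians of 5.84 in fl/fl tumors (5.73 to 6.30) and 5.85 in knockout tumors (5.27 to 6.55). Its difference was -0.092 ± 0.14 in fl/fl mice (adjusted p = 0.654), and in knockout mice it fell by 0.38 ± 0.14 (adjusted p = 0.0197). That call was lost under a further quantile normalization (adjusted p = 0.0669) and in a fit of the compared groups alone (adjusted p = 0.0707). Clca3b had medians of 12.96 (12.75 to 13.25) and 13.04 (12.47 to 13.25), with differences of 0.21 ± 0.09 and -0.084 ± 0.091 (adjusted p = 0.0632 and 0.508). The fl/fl value passed under both other scalings, 0.24 with arrays at 1 median and 0.28 after a further quantile normalization (adjusted p = 0.0379 and 0.0153).

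Clca1 was lower in tumors with a wide spread. Its values ran from 11.27 through a median of 12.37 to 12.90 in fl/fl tumors and from 11.50 through 12.30 to 12.61 in knockout tumors. The groups overlapped with AOM+DSS colon, and Clca1 fell by 0.79 ± 0.14 and 0.61 ± 0.13 (adjusted p = 2.49e-06 and 9.79e-05). Of 15 goblet cell genes 1 was higher and 7 were lower in fl/fl tumors (median -0.34), and 1 and 10 in knockout tumors (median -0.45). Bcas1 fell by 1.54 ± 0.12 and 1.43 ± 0.12, and Fcgbp, a mucus protein, by 1.12 ± 0.14 and 1.13 ± 0.14. Ang4, an antimicrobial ribonuclease, went the other way in knockout tumors and rose by 4.71 ± 0.62 (adjusted p = 3.51e-09). Their part in the fall of Clca1 was not tested.

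Clca2 was lower in tumors than in AOM+DSS colon. Its medians were 4.61 (4.10 to 6.30) in fl/fl tumors and 4.32 (4.14 to 5.99) in knockout tumors, and the highest value of each group came from the tumor with the highest squamous mean of its group, 8.67 and 8.14. Clca2 fell by 0.89 ± 0.23 and 1.09 ± 0.22 (adjusted p = 0.000930 and 3.28e-05). Of the 14 squamous genes 0 rose, and 6 in fl/fl and 8 in knockout mice fell (medians -1.14 and -1.59). Their part in the fall of Clca2 was not tested.

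**Figure D2:**
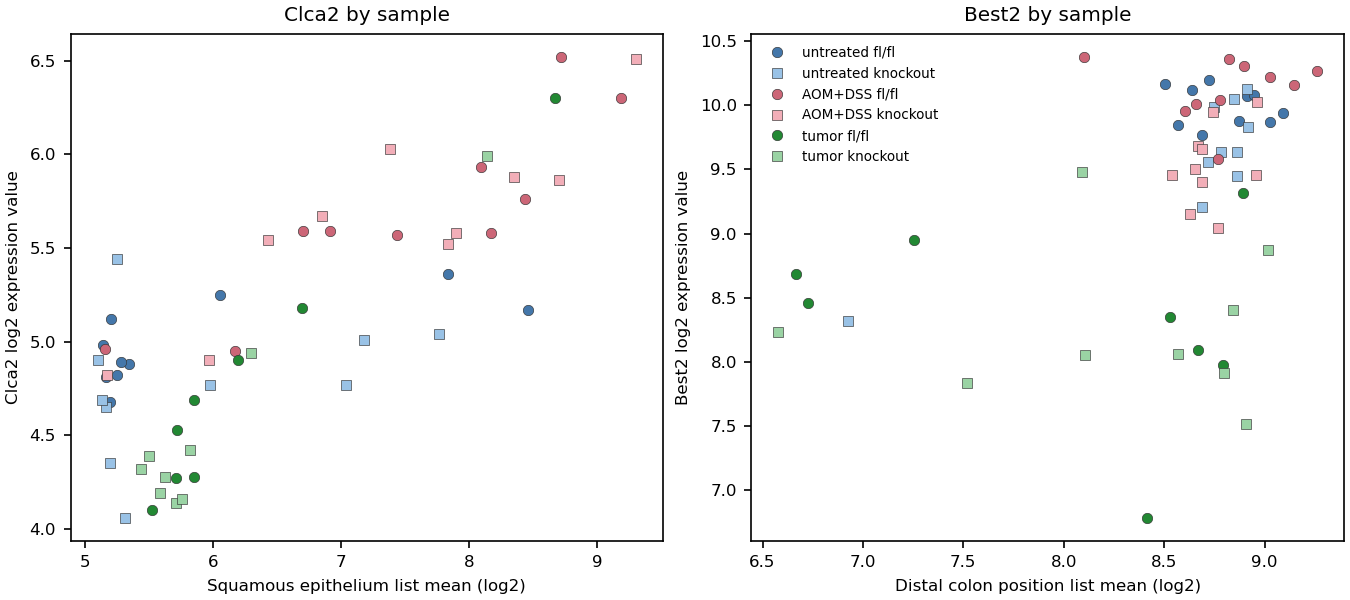
The left panel plots Clca2 against the mean of 14 squamous epithelium genes and the right panel Best2 against the mean of 6 Hox genes of distal colon position, 1 point a sample (log2 on both axes; circles fl/fl, squares knockout). The tumors with squamous means of 8.67 and 8.14 hold the highest Clca2 values of their groups, as does the AOM+DSS knockout sample at 9.30. In the other groups the highest Clca2 and the highest squamous mean belong to different samples. Tumors with low Best2 occur at both low and high position means. The colon sample with a position mean of 6.93 has the lowest Best2 of the colon samples, 8.32. The part of squamous cells or of colon position in these values was not tested.

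Ano1 was lower in tumors by a modest amount. Its values ran from 10.56 through a median of 10.70 to 10.95 in fl/fl tumors, all below the fl/fl AOM+DSS samples. In knockout tumors they ran from 10.27 through 10.85 to 10.98, overlapping with AOM+DSS colon. Ano1 fell by 0.55 ± 0.09 and 0.36 ± 0.09 (adjusted p = 1.37e-06 and 0.000713). All 10 smooth muscle genes were lower in tumors of both genotypes (medians -1.70 and -1.61), their mean ranging from 10.84 to 11.53 in fl/fl AOM+DSS colon and 9.18 to 10.17 in fl/fl tumors, and from 10.75 to 11.32 and 8.69 to 10.21 in knockout mice. Of 6 genes of interstitial cells of Cajal, which use Ano1, 5 fell in each genotype and 1 rose in fl/fl tumors. Etv1 changed by -1.05 ± 0.12 in fl/fl and -1.17 ± 0.12 in knockout tumors, and Kit by -0.65 ± 0.11 and -0.61 ± 0.11. With the smooth muscle mean as a covariate the difference of Ano1 was 0.071 in fl/fl and 0.25 in knockout mice (adjusted p = 0.885 and 0.409). The same covariate left 2 of the 9 genes called in each genotype. Over all genes it cut the calls from 9143 to 1993 in fl/fl and from 9511 to 2093 in knockout mice. Some genes that lost their call kept a change at least as large: Clca4a was at -1.46 and Clca3a2 at 0.68 in fl/fl mice (adjusted p = 0.0509 and 0.403), and Clca1 at -0.76 in knockout mice (adjusted p = 0.0699). Clca2 was at 0.031 in fl/fl and -0.19 in knockout mice (adjusted p = 0.985 and 0.868). The smooth muscle means of tumors and AOM+DSS colon did not overlap, so the fit cannot tell the covariate from the tumor difference. The part of muscle cells in the change of any of these genes was not tested.

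**Figure D3:**
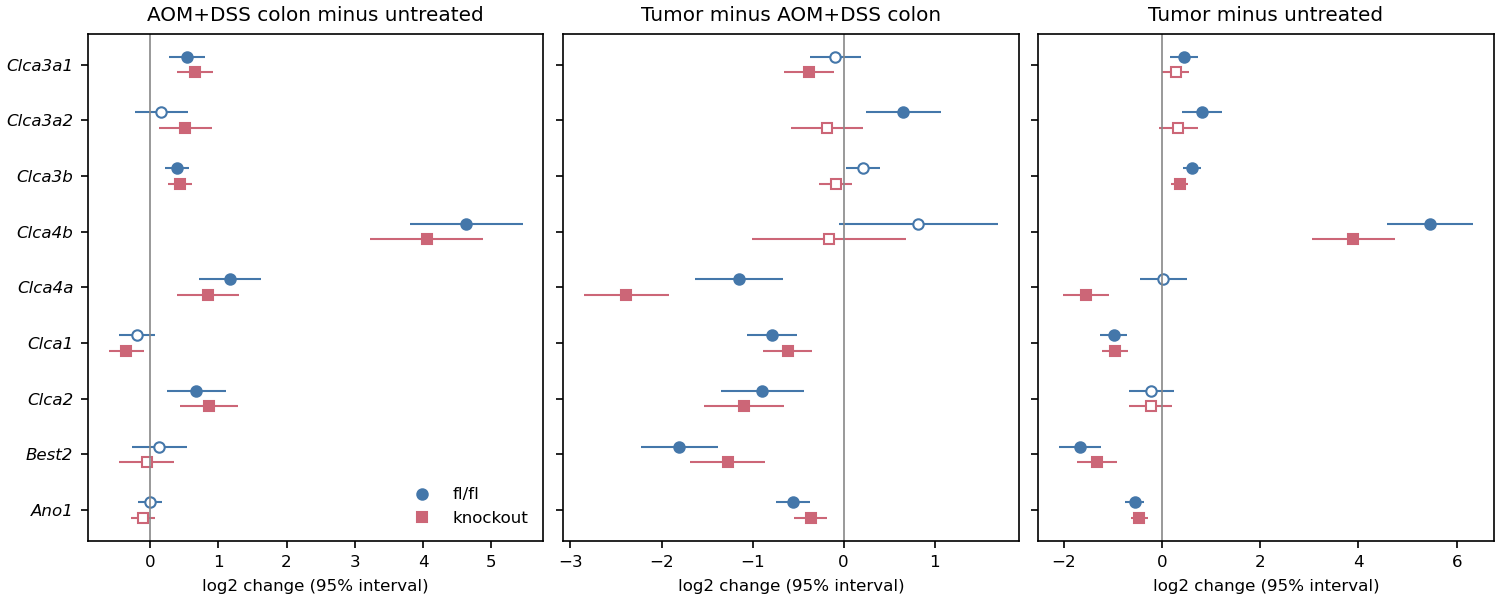
Log2 changes with 95% intervals are shown for the 9 genes in 3 comparisons (fl/fl circles, knockout squares; filled where the adjusted p was under 0.05; the axis range differs between panels). Clca4b rose by 4.64 and 4.06 after AOM+DSS and stayed up in tumors, while Best2 passed the test in the tumor panels and not after AOM+DSS, and Clca4a rose after AOM+DSS and fell in tumors against AOM+DSS colon; against untreated colon it fell in knockout tumors and was at 0.027, not called, in fl/fl tumors.

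Tumors were also set against untreated colon, a comparison that shares its samples with both others. In fl/fl mice 4 genes were higher (Clca4b, Clca3a1, Clca3a2 and Clca3b) and 3 lower (Clca1, Best2 and Ano1), where 45.4% of all genes were called, 22.9% higher and 22.5% lower. In knockout mice 2 were higher (Clca4b and Clca3b) and 4 lower (Clca1, Clca4a, Best2 and Ano1), where 47.3% of all genes were called, 23.6% higher and 23.7% lower. The medians of the 9 genes were 0.027 and -0.23, beside -0.034 and -0.035 over all genes. The groups of 5 genes in fl/fl mice (Clca1, Clca3b, Clca4b, Best2 and Ano1) and of 2 in knockout mice (Clca1 and Clca4b) did not overlap, against 17.2% of all genes in fl/fl mice (8.98% higher, 8.26% lower) and 18% in knockout mice (10% higher, 7.95% lower).

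Clca4b was higher in tumors than in untreated colon by 5.46 ± 0.44 in fl/fl mice, or 44.0-fold, and by 3.90 ± 0.42 in knockout mice, or 14.9-fold (adjusted p = 3.28e-16 and 1.02e-11). Clca3b was higher by 0.61 ± 0.09 and 0.36 ± 0.09 (adjusted p = 1.39e-07 and 0.000693). Clca3a2 and Clca3a1 were higher in fl/fl tumors by 0.82 ± 0.21 and 0.45 ± 0.14 (adjusted p = 0.000702 and 0.00656); in knockout tumors the differences were 0.33 ± 0.20 and 0.28 ± 0.14 (adjusted p = 0.171 and 0.0877). Clca1 fell by 0.98 ± 0.14 and 0.96 ± 0.13 (adjusted p = 1.56e-08 and 9.64e-09). Best2 fell by 1.67 ± 0.21 and 1.32 ± 0.21 (adjusted p = 1.35e-09 and 1.87e-07), and Ano1 by 0.56 ± 0.09 and 0.46 ± 0.09 (adjusted p = 9.41e-07 and 1.91e-05). With the smooth muscle mean as a covariate Ano1 differed by 0.058 and 0.21 (adjusted p = 0.892 and 0.522), and the number of genes called went from 7 to 3 in fl/fl and from 6 to 4 in knockout mice. In fl/fl mice Clca3a1, Clca3a2 and Clca3b lost their calls at 0.61, 0.85 and 0.51 (adjusted p = 0.171, 0.206 and 0.0681), and in knockout mice Clca3b did at 0.24 (adjusted p = 0.519). Here too the smooth muscle means of tumors and colon did not overlap, and the part of muscle cells was not tested.

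The change of Clca4a was called in knockout tumors and not in fl/fl tumors, and the difference between the genotypes in this response was not tested. In fl/fl tumors it stood 0.027 ± 0.24 from untreated colon (adjusted p = 0.943), while in knockout tumors it fell by 1.54 ± 0.23 (adjusted p = 9.68e-08). Clca2 was near its untreated level, at -0.21 ± 0.23 and -0.23 ± 0.22 (adjusted p = 0.478 and 0.417). By group means, Clca4a was ordered from AOM+DSS knockout (11.85) and AOM+DSS fl/fl (11.42) through untreated knockout (11.001), fl/fl tumor (10.27) and untreated fl/fl (10.24) to knockout tumor (9.46), and each neighbour in this order overlapped with the next. For Clca4b the order was fl/fl tumor (12.58), AOM+DSS knockout (12.50), knockout tumor (12.34), AOM+DSS fl/fl (11.76), untreated knockout (8.45) and untreated fl/fl (7.12), with overlap at each step.

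Knockout and fl/fl samples were then compared within each condition. The count of called genes was 0 of 9 in untreated colon, AOM+DSS colon and tumors, where 0.00451%, 0.541% and 0.00902% of all genes were called. At an unadjusted p under 0.05, limma gave 4 of the 9 in untreated colon (Clca3b, Clca4a, Clca4b and Best2), 4 in AOM+DSS colon (Clca3a2, Clca3b, Best2 and Ano1) and 1 in tumors (Clca4a), beside 1114, 2898 and 990 of all genes. With array weights 2 passed in AOM+DSS colon, Clca3a2 and Best2 (adjusted p = 0.0243 and 0.0312), and with dim genes removed 1 did, Clca3a2 (adjusted p = 0.0498). Over all genes the calls there were 485 with array weights and 274 of 11918 with dim genes removed, beside 120 in the main fit. The median differences of the 9 genes were 0.12, 0.23 and -0.066, beside -0.0047, -0.0011 and -0.0069 over all genes. In each condition 0 of the 9 genes had groups that did not overlap, against 0.00451%, 0.0135% and 0% of all genes.

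In untreated colon, Clca4b was higher in knockout samples by 1.32 ± 0.41 with a 95% interval of 0.50 to 2.15, the largest genotype difference in size among all genes there, but its spread between samples was wide (adjusted p = 0.597). Clca4a differed by 0.76 ± 0.23 with an interval of 0.30 to 1.21 (adjusted p = 0.539). The 2 ranges of Clca4a met only between 10.61 and 10.87. In AOM+DSS colon the differences were 0.74 ± 0.41 for Clca4b and 0.43 ± 0.23 for Clca4a (adjusted p = 0.452 and 0.423). In tumors they were -0.24 ± 0.45 and -0.81 ± 0.25 (adjusted p = 0.9999 and 0.798). None of these passed the test.

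Clca3a2 differed most in AOM+DSS colon, by 0.67 ± 0.19 with an interval of 0.28 to 1.06 (adjusted p = 0.0767). Best2 was lower in knockout samples there by 0.60 ± 0.20, with an interval of -0.998 to -0.20 (adjusted p = 0.133), and by 0.41 ± 0.20 in untreated colon (adjusted p = 0.982). Without replicate 2 of the untreated knockout group the untreated difference of Best2 was -0.27 (adjusted p = 0.998). Clca1, Clca2, Clca3a1, Clca3b and Ano1 differed by at most 0.24 in size in any condition.

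**Figure D4:**
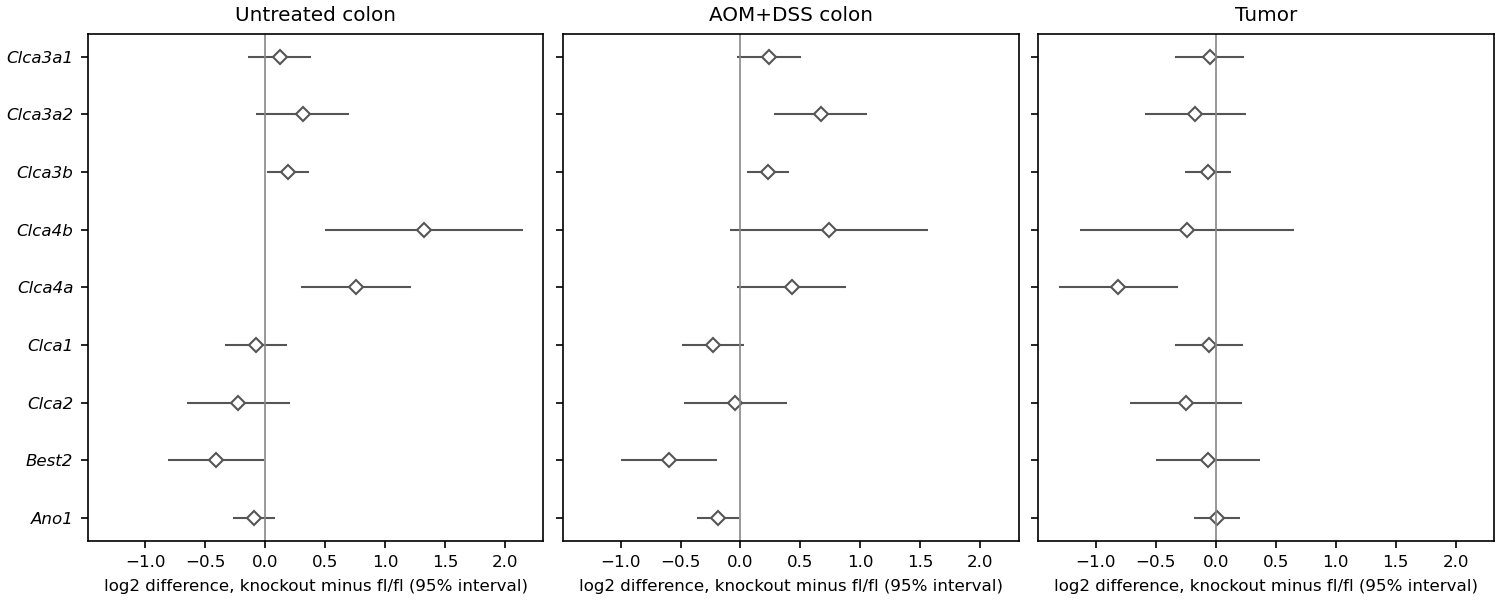
Knockout minus fl/fl log2 differences with 95% intervals are shown for the 9 genes in untreated colon, AOM+DSS colon and tumors; open symbols mark an adjusted p at or above 0.05, which holds for all of them. The differences farthest from 0 are those of Clca4b (1.32) and Clca4a (0.76) in untreated colon and of Clca4a (-0.81) in tumors.

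Whether the genotypes differed in their responses was tested with interaction terms. For the AOM+DSS response 0 of the 9 genes and 0% of all genes passed. At an unadjusted p under 0.05, limma gave 0 of the 9, beside 1351 of all genes. For the tumor response 0 of the 9 and 0% of all genes passed. Here limma gave 3 of the 9 at an unadjusted p under 0.05 (Clca3a2, Clca3b and Clca4a), beside 1470 of all genes. For both responses the count of the 9 genes that passed after adjustment was 0 under each alternative fit that was run. Over all genes, 1 passed for the tumor response without replicate 6 of the knockout tumors.

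Changes of neighbouring or functionally linked genes were compared on the same arrays. The difference between 2 genes was taken in each sample and compared between groups by permutation, for 5 pairs in 6 condition comparisons, with p-values adjusted over the 30 tests; 22 passed. Clca4b and Clca4a differed in all 6. After AOM+DSS, Clca4b rose more than Clca4a by 3.47 ± 0.39 in fl/fl and 3.21 ± 0.53 in knockout mice (permutation, adjusted p = 0.000108 for both). In tumors against untreated colon the gap was 5.43 ± 0.36 and 5.44 ± 0.52 (exact permutation, adjusted p = 0.000125 and 0.000108). In tumors against AOM+DSS colon it was 1.97 ± 0.34 and 2.23 ± 0.28 (exact permutation, adjusted p = 0.000211 and 0.000108). Most of these unadjusted values, 2e-05 for 100000 permutations, 4.57e-05 for 8 against 10 samples and 2.17e-05 for 9 against 10, are the smallest the permutations can give; that of the fl/fl tumors against AOM+DSS colon was 9.14e-05.

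The other pairs were less uniform. Clca3a2 exceeded Clca3a1 in fl/fl tumors, by 0.75 ± 0.16 against AOM+DSS colon (exact permutation, adjusted p = 0.00206) and 0.37 ± 0.13 against untreated colon (adjusted p = 0.0195, exact permutation). In knockout tumors these gaps were 0.20 ± 0.14 and 0.055 ± 0.18 (exact permutation, adjusted p = 0.193 and 0.760). Best2 fell more than Clca1, both goblet cell genes, in tumors against AOM+DSS colon, by 1.01 ± 0.33 in fl/fl and 0.66 ± 0.19 in knockout mice (exact permutation, adjusted p = 0.00830 and 0.00484). Against untreated colon this gap was -0.69 ± 0.34 and -0.36 ± 0.27 (exact permutation, adjusted p = 0.0474 and 0.228), and the knockout gap did not pass. Best2 also fell more than Ano1 in tumors against AOM+DSS colon, by 1.25 ± 0.28 and 0.91 ± 0.21 (exact permutation, adjusted p = 0.000125 and 0.00112). Against Muc2, the main secreted mucin of the colon, Clca1 was lower by 0.31 ± 0.06 and 0.47 ± 0.08 after AOM+DSS (permutation, adjusted p = 0.000108 and 0.000125). In tumors against untreated colon that gap was -0.91 ± 0.16 and -0.77 ± 0.09 (exact permutation, adjusted p = 0.000125 and 0.000108).

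The genes with the most similar pattern over all 57 samples were found by Pearson correlation, given here as a description. These samples share groups and a joint normalization, so the correlation with group means removed is given as well. For Clca1 the nearest gene was Fcgbp (0.94, and 0.86 with group means removed), followed by Hsd3b3, Scin, Hao2 and Aadac (0.91 to 0.92). For Clca4a it was Krt20, a keratin of surface colonocytes (0.88 and 0.74), then Pls1, Plac8, Nipal1 and Ly6m. For Clca4b it was Dhrs9 (0.91 and 0.42), then Lgmn, Vsig1, Steap4 and Msr1, whose values with group means removed lay between 0.39 and 0.53. For Best2 it was Atp2c2 (0.94 and 0.78), then Hsd11b2, Thbs4, Gal3st2b and Plekhh1. For Ano1 it was Eef2k (0.91 and 0.79), then Hmcn1, Rapgefl1, B4galnt3 and Thnsl2.

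Among the 9 genes themselves, Clca3a2 and Clca3b were the closest pair (0.81, and 0.77 with group means removed over 57 samples). They are neighbours in the cluster, and shared binding of their probes was not tested. Best2 and Ano1 gave 0.80 and 0.45, and Clca1 and Best2 gave 0.72 and 0.17. Clca4a and Clca4b, next to each other in the cluster, gave only 0.17 and 0.33. Of the genes that flank the cluster, after AOM+DSS Sh3glb1 rose by 0.29 ± 0.05 in fl/fl and 0.44 ± 0.05 in knockout mice, and Odf2l by 0.21 ± 0.08 and 0.29 ± 0.08.

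Other genes of chloride and bicarbonate transport were described by their counts in the same fits. Of 14 measured genes of epithelial chloride secretion and absorption, 0 rose and 7 fell after AOM+DSS in fl/fl mice (median -0.24), and 1 rose and 8 fell in knockout mice (median -0.31). The potassium channel gene Kcnq1 fell by 0.47 ± 0.09 and 0.72 ± 0.09, and the bicarbonate cotransporter gene Slc4a4 by 0.46 ± 0.12 and 0.69 ± 0.12. The chloride channel gene Cftr fell by 0.51 ± 0.13 in fl/fl mice. In tumors against AOM+DSS colon, 3 were higher and 7 lower in fl/fl mice (median -0.37), and 4 and 7 in knockout mice (median -0.33). There Slc26a3, the chloride-bicarbonate exchanger of absorptive cells, changed by -3.88 ± 0.30 and -4.21 ± 0.29, and Cftr by -1.43 ± 0.13 and -1.36 ± 0.13. Among 11 bestrophin and anoctamin relatives, 0 rose and 5 fell after AOM+DSS in fl/fl mice and 1 rose and 5 fell in knockout mice. In tumors 2 were higher and 6 lower in fl/fl mice and 2 and 5 in knockout mice, with Best1 and Ano8 higher by 0.62 ± 0.10 and 0.62 ± 0.07 in fl/fl tumors and by 0.39 ± 0.10 and 0.64 ± 0.07 in knockout tumors.

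Marker lists of the cells and signals that surround these genes gave the following counts. After AOM+DSS, 3 of 15 goblet cell genes rose and 0 fell in fl/fl mice, and 2 rose and 2 fell in knockout mice. Of 15 genes of the type 2 cytokine axis, whose cytokines induce Clca1 in airway epithelium, 3 rose and 1 fell in fl/fl mice and 6 rose and 1 fell in knockout mice. The receptor gene Il4ra rose by 0.56 ± 0.12 and 0.79 ± 0.12, and Arg1 by 2.20 ± 0.47 and 2.61 ± 0.47, while Il13 fell by 0.26 ± 0.08 in fl/fl mice. Of 8 regenerating epithelium genes 5 rose in fl/fl and 7 in knockout mice and 0 fell, with Dhrs9, the gene nearest to Clca4b, higher by 3.11 ± 0.30 and 3.14 ± 0.30. All 10 neutrophil and macrophage genes and all 7 T and B cell genes rose in both genotypes. Their part in the rise of Clca4b was not tested. Of 12 absorptive colonocyte genes 2 rose and 3 fell in fl/fl mice and 2 rose and 4 fell in knockout mice. Of 11 pan-epithelial genes 0 rose in either genotype, and 0 and 3 fell. In tumors 1 rose and 5 fell in fl/fl mice and 1 rose and 6 fell in knockout mice, with a list mean of 11.02 ± 0.12 in fl/fl and 10.94 ± 0.16 in knockout tumors (SD, n = 8 and 9) against 11.17 ± 0.13 and 11.10 ± 0.13 in AOM+DSS colon (SD, n = 10 each).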

How the data were processed

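Total RNA was labelled from 250 ng with the WT Plus kit, per the labels' protocols. The deposited log2 values were made by the authors with RMA, per the submitters' processing notes, which subtracts background, quantile-normalizes arrays and summarises probes; the sources used here do not give its version. Quantile normalization hides array-wide shifts, and dim changes are compressed. Of 41345 probe sets, 23521 carried 1 symbol in the platform table; 1814 with several symbols and 16010 unnamed ones were not used. The brightest probe set stood for each of 22180 genes. Arrays have no read depth, and their number limits the precision.

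The 6 groups came from the titles. limma 3.58.1 (R 4.3.3; lmFit, contrasts.fit, eBayes; 51 residual degrees of freedom) was fitted over all 57 arrays, two-sided, with Benjamini-Hochberg adjustment. Pairs of genes were tested by two-sided permutation in scipy 1.17.1, exact where a group held under 10 samples. The tests were checked on simulated data. The text names the 9 genes everywhere, up to 4 genes with the smallest adjusted p of a list, and the 5 genes most correlated with each of 5 members (predicted models, small RNA genes and receptor or immunoglobulin segments left out); Muc2, Insr, the cluster's neighbours and Krt20 were named for the results that turn on them. The 9 genes and the 14 lists (bestrophin and anoctamin relatives, chloride secretion and absorption, goblet, type 2 cytokine, absorptive, pan-epithelial, squamous, regenerating, interstitial cells of Cajal, smooth muscle, endothelium, distal colon position, neutrophil and macrophage, T and B cell) were chosen with earlier results of these data known. Some listed genes were not used here. Alternatives changed the scaling, probe sets, dim gene filter, variance model, samples fitted, array weights, replicate block and covariates. Some promoter windows are not reported here.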

Additional observations from a re-analysis of the deposited data

Results flagged for a closer look

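In each group the lowest and highest of the 9 genes and of 5 list means were searched with Dixon's criterion, which asks whether 1 sample stands apart from the rest; 9 of 84 searches passed, and chance alone flags about 1 in 20. In the untreated knockout group replicate 2 stood apart in 3 values. Its Best2 was 8.32 against 9.21 in the next sample, its distal colon position mean was 6.93 against 8.69, and its goblet cell mean was 11.55 against 10.75. Replicate 9 of the AOM+DSS fl/fl group had a Best2 of 9.58 against 9.96, and replicate 2 of the AOM+DSS knockout group had a regenerating epithelium mean of 8.49 against 9.01. Replicate 4 of the fl/fl tumors had a squamous mean of 8.67 against 6.69. Replicate 6 of the knockout tumors had a squamous mean of 8.14 against 6.29, a Clca2 of 5.99 against 4.94 and a goblet cell mean of 9.33 against 9.78.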

How the results depend on the processing

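Of 1175 values of single genes under alternatives, 1125 kept their direction and their side of the threshold. With the sign kept, 10 passed where they had not and 16 no longer passed, and 24 changed sign. Some of these 24 also lost a call, such as Ano1 in tumors with the smooth muscle mean. No call changed sign while passing the threshold. The counts of called genes moved most, relative to their size, under 4 alternatives; other counts moved by at most 2 genes, such as from 6 to 4 in knockout tumors against untreated colon with the smooth muscle mean. With dim genes removed, 3 genes were called after AOM+DSS in fl/fl mice (5 before) because Clca2 and Clca3a1 were not tested, and 1 between genotypes in AOM+DSS colon (0 before). With array weights 2 were called there. Over all genes the calls between genotypes in AOM+DSS colon were 274 with dim genes removed and 485 with array weights (120 before). With the squamous mean as a covariate 4 were called after AOM+DSS in knockout mice (7 before), and 5514 of all genes (6692 before). With the smooth muscle mean 2 and 2 were called in tumors against AOM+DSS colon (6 and 6 before) and 3 in fl/fl tumors against untreated colon (7 before). Over all genes the smooth muscle mean left 1993, 2093 and 3005 calls in these comparisons (9143, 9511 and 10063 before). That covariate differs strongly between tumors and colon, so little of the tumor difference is left to estimate.

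Values that changed sign were as follows. With the smooth muscle mean, tumor minus AOM+DSS colon in fl/fl mice became 0.0308 for Clca2, 0.0728 for Clca3a1 and 0.0708 for Ano1, and 0.2481 for Ano1 in knockout mice. Tumor minus untreated colon became 0.6979 for Clca2, -0.2839 for Clca4a and 0.0584 for Ano1 in fl/fl mice, and 0.7541 for Clca2 and 0.2092 for Ano1 in knockout mice, and the genotype difference of Clca2 in AOM+DSS colon 0.0387. With the squamous mean, the AOM+DSS change became 0.0069 for Ano1 in fl/fl and 0.1382 for Best2 in knockout mice. With array weights it was 0.0028 for Ano1 in fl/fl mice, Clca4a in fl/fl tumors against untreated colon was -0.0864, and the genotype difference of Clca1 in tumors 0.0052. With the position mean, a covariate chosen after seeing the data, these last values were -0.1737 and 0.0187, and the genotype difference of Ano1 in tumors was -0.0492. Leaving out replicate 4 of the fl/fl or replicate 6 of the knockout tumors, also chosen after seeing the data, gave -0.0103 for Clca4a in fl/fl tumors against untreated colon (without replicate 4). Genotype differences in tumors then ranged from -0.1185 to 0.0011 for Clca3a1, -0.0977 to 0.0292 for Clca1, -0.2842 to 0.0304 for Best2 and -0.0067 to 0.0036 for Ano1, and that of Clca2 in the tumor response from -0.3833 to 0.0165. The smooth muscle, squamous and position covariates show association with list means; the cause of the other sign changes was not tested.

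Of 136 pairs of same-numbered samples, 41 correlated above 0.1, and all pairs ran from -0.33 to 0.33. Samples of different numbers were not correlated as a baseline, so whether same-numbered samples belong together was not tested. With the replicate block, 5 and 7 genes were called after AOM+DSS, 7 and 6 in tumors against AOM+DSS colon, 7 and 6 against untreated colon and 0 in the genotype comparisons; Clca3b in fl/fl tumors against AOM+DSS colon passed (0.22, adjusted p = 0.0382), as it did under both other scalings and with dim genes removed. Of the 30 pair tests 22 passed in each of 3 alternatives, and 21 or 22 of these were among the 22 reported.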
